A study of Homo sapiens with 6 samples.

Results

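YAP and TAZ, the paired transcriptional coactivators of the Hippo pathway, were examined with their DNA-binding partners and their best known target genes in MDA-MB-231 cells whose MYO10 message had been lowered. The 10 genes, of 19775 that the array names singly, were given as a list: the coactivators YAP1 and WWTR1 (which encodes TAZ), the transcription factors TEAD1 and TEAD4, the kinase LATS2, and the targets CCN1 (formerly CYR61), CCN2 (formerly CTGF), ANKRD1, AMOTL2 and AXL. The platform annotation assigned 22 of the array's 54675 probe sets to 1 of these symbols alone, and 0 probe sets named one of them together with another gene. Each probe set, a bundle of short probes on the array, reads 1 stretch of a transcript, and all 22 passed the filter on dim signals that left 33334 probe sets for testing.

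MDA-MB-231 is an established line from a triple-negative breast carcinoma, and it is known to lack functional NF2, a protein that helps to switch the LATS kinases on. One group of 3 samples stably expressed an shRNA against MYOSIN10 (the gene now called MYO10, a motor protein of filopodia) and the other group of 3 a scramble shRNA, each hybridised to 1 array. All 6 grew in L-15 medium with serum. The number of hairpins and whether the cells were clones or pools are not stated in these sources, nor is whether the 3 numbered samples of a group were separate cultures. All p-values thus set the group difference against the scatter of these samples alone, and that scatter may be technical.

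In the Hippo pathway, the LATS kinases phosphorylate YAP and TAZ and hold them in the cytoplasm. When the kinases are quiet, and on stiff matrix or under actomyosin tension, YAP and TAZ enter the nucleus and bind TEAD factors, which have no strong activating domain of their own. The control acts mainly on the proteins, so that the messages of YAP1 and WWTR1 do not report their activity, while those of CCN1, CCN2 and ANKRD1 are in wide use as its readout. LATS2 and AMOTL2 are at once brakes on YAP and products of its target genes, a negative feedback.

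TEAD factors recognise a short element with the core GGAATG. To show where this core lies in the genes described here, the 250 bases before the annotated start were searched on both strands, for GGAATG and its reverse complement CATTCC, in the RefSeq promoters of GRCh38.p14. The table held promoters for 7 of the 10 genes, 10 promoters in all, since some genes have several starts. CCN2 had 3 matches, at positions -169, -104 and -95 from the start, and ANKRD1 had 2, at -220 and -128. Over all 35116 promoters of the table, 11.9% held at least 1 match, 0.94% at least 2 and 0.0826% at least 3. A match is a stretch of letters and not a measured binding site. Both sequences lie on the minus strand of the genome, CCN2 at chr6:131951373-131951622 and ANKRD1 at chr10:90921088-90921337, and are printed 5′ to 3′ along the gene with the matches in capitals.
CCN2: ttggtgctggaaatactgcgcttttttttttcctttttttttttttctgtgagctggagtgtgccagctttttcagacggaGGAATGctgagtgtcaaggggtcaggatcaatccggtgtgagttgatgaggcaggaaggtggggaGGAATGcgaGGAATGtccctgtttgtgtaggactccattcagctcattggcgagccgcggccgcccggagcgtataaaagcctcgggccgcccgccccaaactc
ANKRD1: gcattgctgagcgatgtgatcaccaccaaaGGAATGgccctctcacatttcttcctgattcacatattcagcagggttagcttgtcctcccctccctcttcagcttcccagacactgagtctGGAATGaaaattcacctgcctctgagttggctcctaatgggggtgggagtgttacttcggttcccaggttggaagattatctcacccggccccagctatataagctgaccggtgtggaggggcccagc

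YAP1 and 1 of the annotated starts each of AMOTL2 and AXL held a single match, and the promoters of WWTR1 and LATS2 held 0. The 30 bases around each match are shown for AMOTL2 (minus strand, chr3:134374499-134374528, match at -69), AXL (plus strand, chr19:41226531-41226560, match at -212) and YAP1 (plus strand, chr11:102110273-102110302, match at -162).
AMOTL2: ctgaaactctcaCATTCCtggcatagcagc
AXL: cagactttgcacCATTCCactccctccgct
YAP1: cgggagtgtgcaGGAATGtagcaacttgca

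The arrays carry no read depth, and their number, 3 per group, limits the precision. The lowered gene was checked first: the brightest MYO10 probe set stood at 54.2% of its scramble level (log2 fold change -0.88 ± 0.17 SE, limma adjusted p = 0.0318), with less of the loss on MYOSIN10 shRNA array 2 than on arrays 1 and 3. None of the other 4 kept MYO10 probe sets passed; they gave log2 fold changes of -0.74, -0.84, -0.58 and 0.31 (limma adjusted p = 0.0514, 0.126, 0.163 and 0.646). The brightest one did not pass when any single array other than the arrays numbered 2 was left out, with limma adjusted p-values from 0.0762 (scramble array 1) to 0.163 (scramble array 3). Correlations between arrays ran from 0.973 to 0.982. On the first principal component, scramble array 2 lay at 3.35, apart from scramble arrays 1 and 3 (-43.2 and -40.1) and nearer to the MYOSIN10 shRNA arrays (22.3 to 33.1). The second component, with 22.3% of the variance, placed both arrays numbered 2 together, at -35.1 (scramble) and -35.2 (MYOSIN10 shRNA), against 2.74 to 37.6 for the other 4. The 3′ minus 5′ difference of the control probe sets, a sign of RNA quality, overlapped between the groups for ACTB (0.370 to 0.512 on the log2 scale) and GAPDH (-0.0866 to -0.00692). VIM and CD44, which this mesenchymal-like line is known for, lay between 14.5 and 14.9 on every array by their brightest probe sets, while 0 probe sets of PGR, the epithelial CDH1 or the leukocyte gene PTPRC passed the filter. ERBB2 had 1 kept probe set, at 8.84 to 9.11, and ESR1 had 2. The brightest probe sets of PECAM1, COL1A1 and ACTA2, markers of endothelium, fibroblasts and myofibroblasts, read between 4.56 and 8.23 and overlapped between the groups.

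Across the comparison of MYOSIN10 shRNA with scramble shRNA, 0 of the 22 probe sets of YAP, TEAD and target genes changed, against 354 of all 33334 tested, which is 1.06% (limma, Benjamini-Hochberg adjusted p under 0.05). Their smallest adjusted p was 0.224, for CCN2, the matricellular growth factor, which stood at 0.862 of its scramble level. The coactivator YAP1 stood at 1.02 of its scramble level and the receptor AXL at 1.02, both by their brightest probe sets, while WWTR1, TEAD1 and ANKRD1 stood between 0.880 and 0.910. An unadjusted p under 0.05 was reached by 6 of the 22, or 27.3%, against 13.2% of all probe sets tested. Several of the 22 read the same gene. By the brightest probe set of each gene it was 2 of 10, or 20%, against 15.1% of all genes. The groups did not overlap in 6 of the 22, 4 lower and 2 higher with MYOSIN10 shRNA, against 18.1% of all probe sets in either direction (8.94% lower and 9.2% higher). Values here and below are log2 of the signal plus 16, and a positive log2 fold change means a higher value with MYOSIN10 shRNA. The RNA came from bulk cultures, so that fewer cells expressing a gene and less message per cell cannot be told apart.

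Of the 22 log2 fold changes, 13 were negative and 9 positive, with a median of -0.064, while 50.4% of all tested probe sets were negative, with a median of -0.0021. The median absolute log2 fold change was 0.11 over the 22 and 0.17 over all probe sets. Among the 10934 probe sets with a mean signal in the range spanned by the brightest probe sets of the 10 genes (9.21 to 14.88), the median absolute value was 0.11 and 2.20% were called. The smallest change called anywhere on the array was 1.26-fold. The 95% intervals of the 10 brightest probe sets ran from 0.772 to 1.20 times the scramble level at their widest ends. Over all 22 probe sets they ran from 0.612 to 2.30 times.

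**Figure D1:**
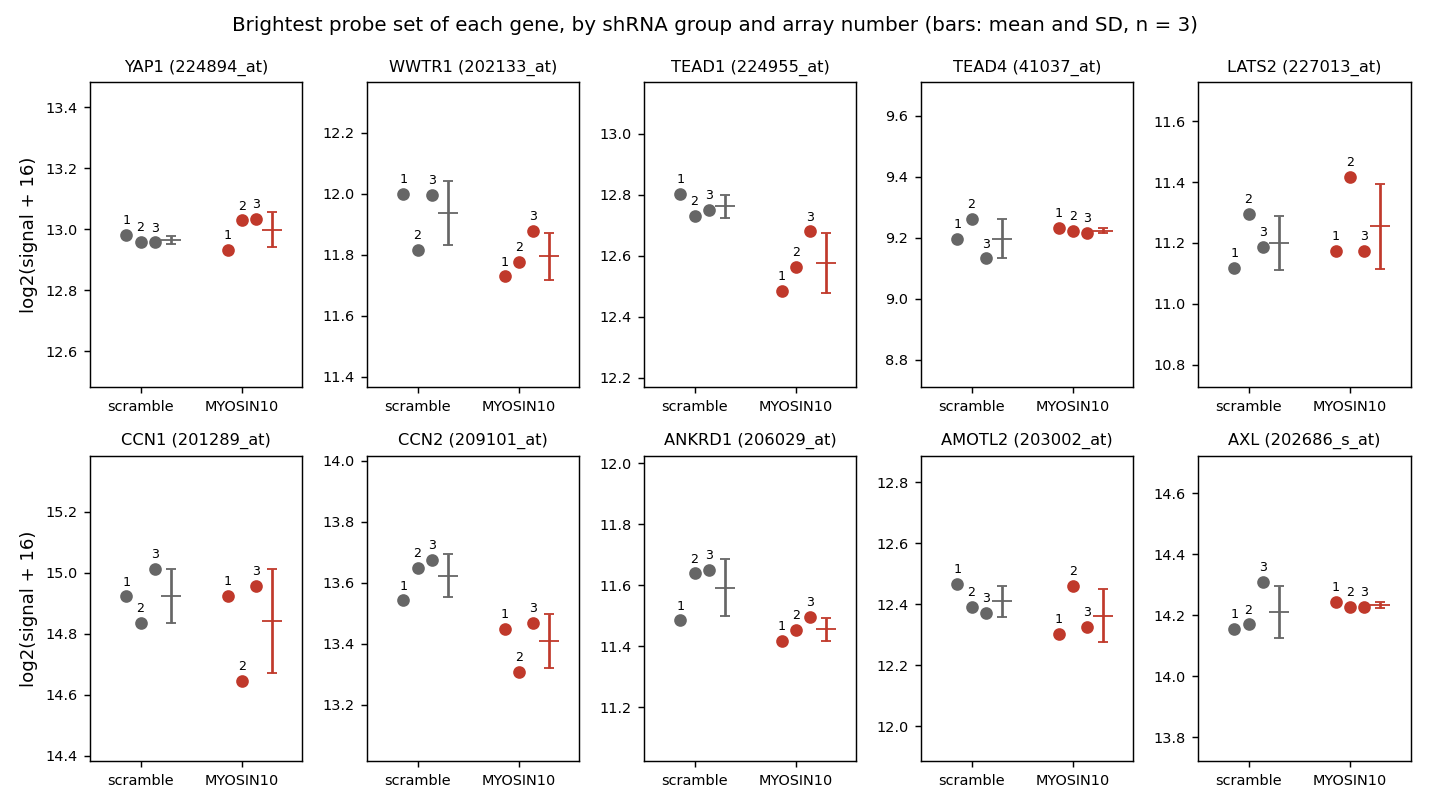
Log2(signal + 16) of the brightest probe set of each of the 10 genes on the 3 scramble (grey) and 3 MYOSIN10 shRNA (red) arrays, numbered as in the labels, with group mean and SD beside them. Every panel spans 1 log2 unit. The groups do not overlap for TEAD1 and CCN2, and overlap for the other 8 genes.

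Of the coactivators, YAP1 differed little between the groups, and the probe sets of WWTR1 did not move together. YAP1, the main coactivator, read 12.98, 12.96 and 12.96 on scramble arrays 1 to 3 and 12.93, 13.03 and 13.03 on MYOSIN10 shRNA arrays 1 to 3 by its brightest probe set (224894_at). MYOSIN10 shRNA array 1 was the lowest of the 6 and arrays 2 and 3 the highest, so the groups overlapped. The log2 fold change was 0.033 ± 0.069 (SE, limma adjusted p = 0.891), and the 95% interval ran from 0.922 to 1.14 times the scramble level. The dimmer YAP1 probe sets 224895_at and 213342_at stood at 0.095 and 0.10, also with overlap.

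WWTR1 encodes TAZ, the close relative of YAP. Its brightest probe set (202133_at) read 12.00, 11.82 and 12.00 with scramble shRNA and 11.73, 11.78 and 11.88 with MYOSIN10 shRNA. Scramble array 2 and MYOSIN10 shRNA array 3 were the pair that overlapped, and the log2 fold change was -0.14 ± 0.086 (SE, limma adjusted p = 0.519). A second probe set, 202132_at, went from 9.83, 9.62 and 9.64 to 9.41, 9.51 and 9.44, with every MYOSIN10 shRNA array below every scramble array (-0.24 ± 0.11 SE, limma adjusted p = 0.379). The dimmest, 202134_s_at, was placed the other way, from 7.30, 7.92 and 7.72 to 8.04, 8.33 and 7.93 (0.45 ± 0.19 SE, limma adjusted p = 0.334), again without overlap. So the 3 WWTR1 probe sets gave opposite signs. By the maker's naming, an _s_at probe set can read several transcripts, and which stretch of the transcript each reads was not analysed here. The separation of 202134_s_at was narrow, 7.92 on scramble array 2 against 7.93 on MYOSIN10 shRNA array 3.

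TEAD1, the broadly expressed member of the TEAD family, lay lower with MYOSIN10 shRNA by its brightest probe set (224955_at). It read 12.80, 12.73 and 12.75 with scramble shRNA and 12.49, 12.56 and 12.68 with MYOSIN10 shRNA. The groups did not overlap, and MYOSIN10 shRNA array 3 came nearest to the scramble arrays. The log2 fold change was -0.19 ± 0.076 (SE, limma adjusted p = 0.322; 95% interval 0.784 to 0.987 times the scramble level). The dimmer TEAD1 probe sets stood at -0.10 (214600_at) and -0.11 (1553322_s_at), both with overlap, so all 3 had the same sign.

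TEAD4, a relative often studied in carcinoma cells, had overlapping readings by both of its probe sets. Its brightest probe set (41037_at) read 9.20, 9.26 and 9.13 with scramble shRNA and 9.23, 9.22 and 9.22 with MYOSIN10 shRNA, a log2 fold change of 0.027 ± 0.11 (SE, limma adjusted p = 0.950). The MYOSIN10 shRNA arrays lay inside the range of the scramble arrays. The other TEAD4 probe set, 204281_at, stood at -0.13 ± 0.13 (SE, limma adjusted p = 0.729).

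LATS2, the kinase that phosphorylates YAP and TAZ, was read by 4 probe sets. The brightest (227013_at) went from 11.12, 11.30 and 11.19 to 11.17, 11.42 and 11.17, and the next (223380_s_at) from 11.06, 11.39 and 11.08 to 11.24, 11.31 and 10.94. Both overlapped and stood at 0.055 ± 0.097 and -0.012 ± 0.12 (SE, limma adjusted p = 0.868 and 0.981), with array 2 the highest of its group in each. The dim 230348_at separated the groups, with 5.76, 5.65 and 5.87 against 6.23, 6.36 and 6.45 (0.58 ± 0.28 SE, limma adjusted p = 0.411). This was the largest value among the 22, at a signal where the added 16 makes up part of the reading. The fourth, 223379_s_at, was dimmer still on average (0.098 ± 0.37 SE, limma adjusted p = 0.946).

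**Figure D2:**
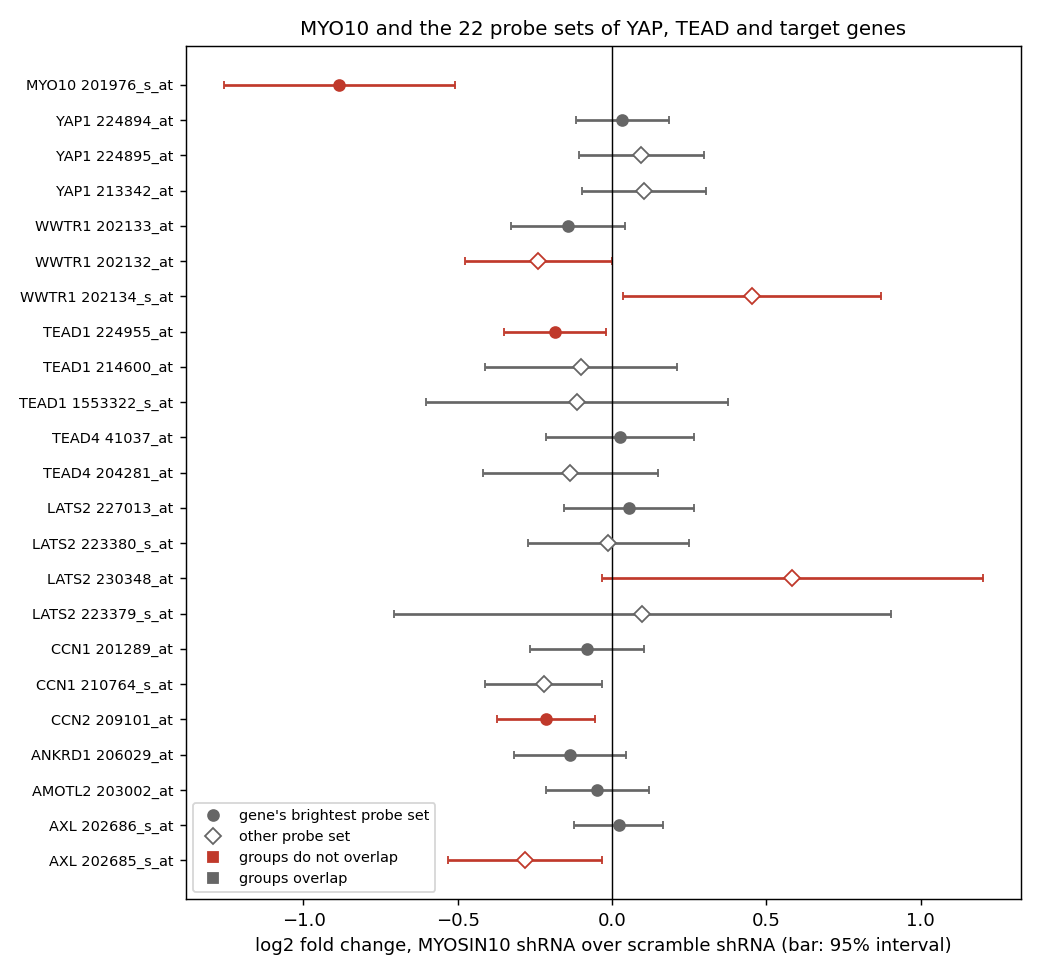
Log2 fold change of MYOSIN10 shRNA over scramble shRNA with its 95% interval for the brightest MYO10 probe set and the 22 probe sets of the 10 genes. Filled circles mark each gene's brightest probe set, open diamonds the others, and red the probe sets whose groups do not overlap. MYO10 stands at -0.88, and the 22 lie between -0.28 (AXL) and 0.58 (LATS2).

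Among the targets, the secreted matricellular proteins CCN1 and CCN2 had log2 fold changes below 0 in all 3 of their probe sets. CCN2 (209101_at) read 13.54, 13.65 and 13.68 with scramble shRNA and 13.45, 13.31 and 13.47 with MYOSIN10 shRNA. The groups did not overlap, and the lowest value was on MYOSIN10 shRNA array 2. The log2 fold change was -0.21 ± 0.073 (SE, unadjusted p = 0.0127, limma adjusted p = 0.224), with a 95% interval from 0.772 to 0.963 times the scramble level. Over 17 other settings of the analysis the CCN2 value ran from -0.25 to -0.15 and its limma adjusted p from 0.0956 to 0.517.

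CCN1, a relative of CCN2 that binds integrins, overlapped between the groups. Its brightest probe set (201289_at) read 14.92, 14.84 and 15.01 with scramble shRNA and 14.92, 14.65 and 14.96 with MYOSIN10 shRNA, a log2 fold change of -0.081 ± 0.085 (SE, limma adjusted p = 0.755). MYOSIN10 shRNA array 2 alone lay below the scramble range, and without it the value was 0.017. The second probe set, 210764_s_at, went from 14.72, 14.60 and 14.92 to 14.62, 14.55 and 14.41 (-0.22 ± 0.087 SE, limma adjusted p = 0.297). There the lowest value was on MYOSIN10 shRNA array 3, and array 1 overlapped with scramble array 2. The lowest array thus differed between the probe sets of CCN1.

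ANKRD1, an ankyrin repeat protein of muscle that is induced by YAP in many cells, read 11.48, 11.64 and 11.65 with scramble shRNA and 11.42, 11.45 and 11.49 with MYOSIN10 shRNA (206029_at). Scramble array 1 lay within the MYOSIN10 shRNA range and scramble arrays 2 and 3 above it. The log2 fold change was -0.14 ± 0.084 (SE, limma adjusted p = 0.533). AMOTL2, an angiomotin-like scaffold that binds YAP and holds it back, went from 12.47, 12.39 and 12.37 to 12.30, 12.46 and 12.32 (203002_at). The groups overlapped, and the log2 fold change was -0.047 ± 0.077 (SE, limma adjusted p = 0.854).

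The receptor tyrosine kinase AXL, which binds the ligand GAS6, was read by a bright and a dimmer probe set. The bright one (202686_s_at) read 14.15, 14.17 and 14.31 with scramble shRNA and 14.24, 14.23 and 14.23 with MYOSIN10 shRNA, a log2 fold change of 0.022 ± 0.066 (SE, limma adjusted p = 0.930; 95% interval 0.919 to 1.12 times the scramble level). The MYOSIN10 shRNA arrays lay within the scramble range. The dimmer one (202685_s_at) went from 9.70, 9.57 and 9.57 to 9.19, 9.37 and 9.43, with no overlap (-0.28 ± 0.11 SE, limma adjusted p = 0.312). That was the lowest value of the 22, and the difference between the 2 AXL probe sets was not tested.

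**Figure D3:**
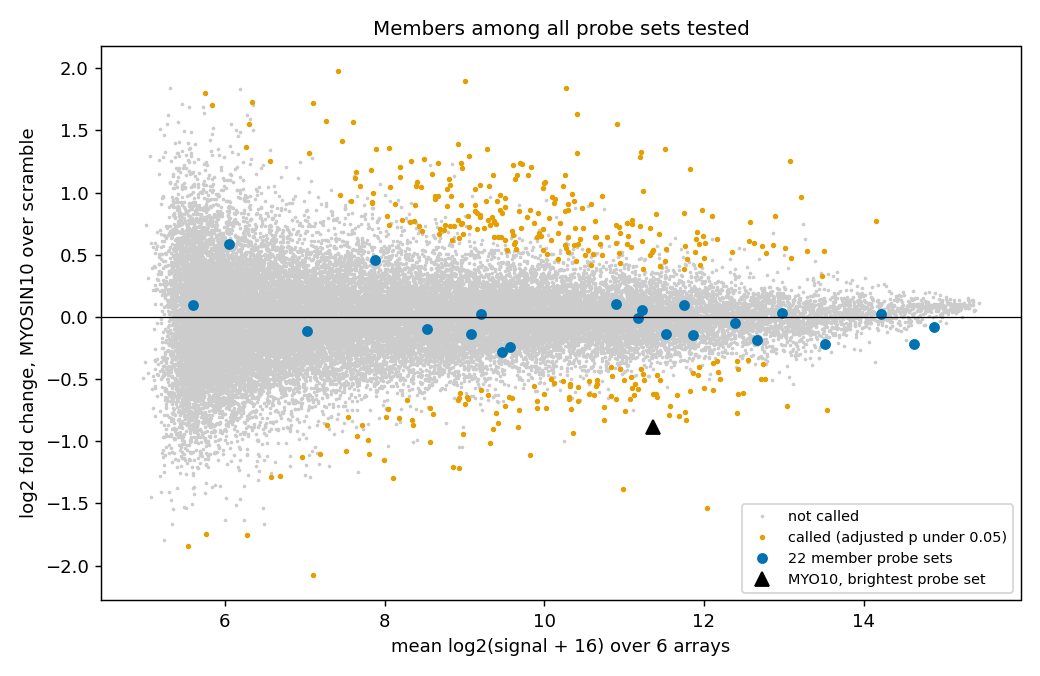
Log2 fold change (vertical) against mean log2(signal + 16) over the 6 arrays (horizontal) for all 33334 probe sets tested, with called ones in orange, the 22 probe sets of the 10 genes in blue and MYO10 as a black triangle. The 22 lie among the probe sets that were not called.

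Of 25 other genes of the Hippo pathway, 23 had a kept probe set, all but AMOT and WWC2, and each was read by its brightest one. Over these, 0 passed in either direction, against 1.4% of 14182 genes read the same way, and 2 had an unadjusted p under 0.05, against 15.1% of genes. Values were positive for 15 and negative for 8, with a median of 0.055, against a median of 0.0093 over all genes. The groups did not overlap for 3 of the 23, while 19.8% of all genes showed such a separation. For the 10 genes of the main list, again by their brightest probe sets, the counts were 0 called, 2 with an unadjusted p under 0.05 and 2 without overlap.

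VGLL4, a cofactor that competes with YAP for TEAD, had the smallest p of the pathway genes by their brightest probe sets. It read 8.97, 9.31 and 8.95 with scramble shRNA and 9.68, 9.34 and 9.75 with MYOSIN10 shRNA. The groups were separate, but array 2 of each came close to the other group (0.51 ± 0.14 SE, limma adjusted p = 0.127). Without scramble array 2 the value was 0.63 (limma adjusted p = 0.0254) and without both arrays numbered 2 it was 0.75 (limma adjusted p = 0.00366). In these fits 1465 and 1658 of all 33334 probe sets passed, against 354 with every array included. Without any other single array VGLL4 ran from 0.44 to 0.64 and was not called (limma adjusted p from 0.074 to 0.402). It was called in 3 of 17 other settings of the analysis. The other VGLL4 probe set stood at 0.42. AMOTL1, an angiomotin relative of AMOTL2, followed with 10.72, 10.55 and 10.85 against 11.04, 11.40 and 10.84 (0.39 ± 0.13 SE, limma adjusted p = 0.226), where MYOSIN10 shRNA array 3 lay within the scramble range. Its other 3 kept probe sets stood at 0.20, -0.069 and -0.015, all with overlap. The kinase STK3, which activates LATS, stood at -0.14 without overlap between the groups (limma adjusted p = 0.509). Its dimmer probe set, 211078_s_at, stood at -0.57 with overlap (limma adjusted p = 0.591). The scaffold WWC1, also called KIBRA, stood at -0.16 (limma adjusted p = 0.511), again without overlap. The other 5 kept WWC1 probe sets were described after their values were seen. Of these, 2 also separated the groups: 241950_at at -0.57 (limma adjusted p = 0.0637) and 229180_at at -0.51 (limma adjusted p = 0.207). The remaining 3 stood at -0.23, -0.078 and -0.12, with overlap. NF2 itself stood at 0.067 (limma adjusted p = 0.922).

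Of 16 further genes in use as readouts of YAP and TAZ, 15 had a kept probe set, all but NUAK2. By their brightest probe sets 0 passed and 4 had an unadjusted p under 0.05, with 11 negative and 4 positive values, a median of -0.056 and 3 without overlap. Over all genes by their brightest probe sets, 1.4% passed, 15.1% had an unadjusted p under 0.05, 19.8% did not overlap, 48.2% were negative and the median was 0.0093. NT5E, the ecto-nucleotidase CD73, read 14.02, 13.92 and 14.10 with scramble shRNA and 13.70, 13.79 and 13.76 with MYOSIN10 shRNA (-0.26 ± 0.070 SE, limma adjusted p = 0.114). The groups did not overlap. A dimmer NT5E probe set, 227486_at, chosen after its values were seen, fell by 0.40 on the log2 scale, from 11.04, 11.02 and 11.05 to 10.61, 10.67 and 10.63 (limma adjusted p = 0.0455). That call held in 7 of 16 other settings and was lost when any single array but scramble array 2 was left out, with limma adjusted p-values from 0.0750 (MYOSIN10 shRNA array 2) to 0.205 (MYOSIN10 shRNA array 1). The other 2 NT5E probe sets stood at -0.13 and -0.18.

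IGFBP3, which binds insulin-like growth factors, had the largest difference of the further targets. It read 11.84, 10.77 and 11.85 with scramble shRNA and 10.88, 10.49 and 10.84 with MYOSIN10 shRNA (-0.75 ± 0.23 SE, limma adjusted p = 0.168). Scramble array 2 lay within the MYOSIN10 shRNA range, and without it the value was -1.11 (limma adjusted p = 0.000366). Without any other single array IGFBP3 ran from -0.82 to -0.57 and was not called (limma adjusted p from 0.30 to 0.51). A dimmer IGFBP3 probe set, 212143_s_at, stood at -0.75 with overlap (limma adjusted p = 0.156). The forkhead factor FOXF2 also had scramble array 2 within the MYOSIN10 shRNA range, in the other direction. It read 9.10, 9.82 and 9.21 against 9.79, 9.98 and 9.79 (0.48 ± 0.17 SE, limma adjusted p = 0.232). FOXF2 stood at 0.70 without scramble array 2 (limma adjusted p = 0.00613). Without any other single array it ran from 0.34 to 0.51 and was not called (limma adjusted p from 0.399 to 0.59). FJX1, a secreted relative of the fly protein four-jointed, stood at -0.18 without overlap (limma adjusted p = 0.379). Without scramble array 2, 4 of the 15 passed: NT5E and IGFBP3 lower, FOXF2 and CRIM1 higher, the last named after its values were seen. In that fit 5.77% of all genes passed by their brightest probe sets, against 1.4% with all 6 arrays, and 1465 of all 33334 probe sets (4.39%). None of the 22 probe sets of the main list passed without that array, where the smallest limma adjusted p was 0.086, for the second CCN1 probe set.

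**Figure D4:**
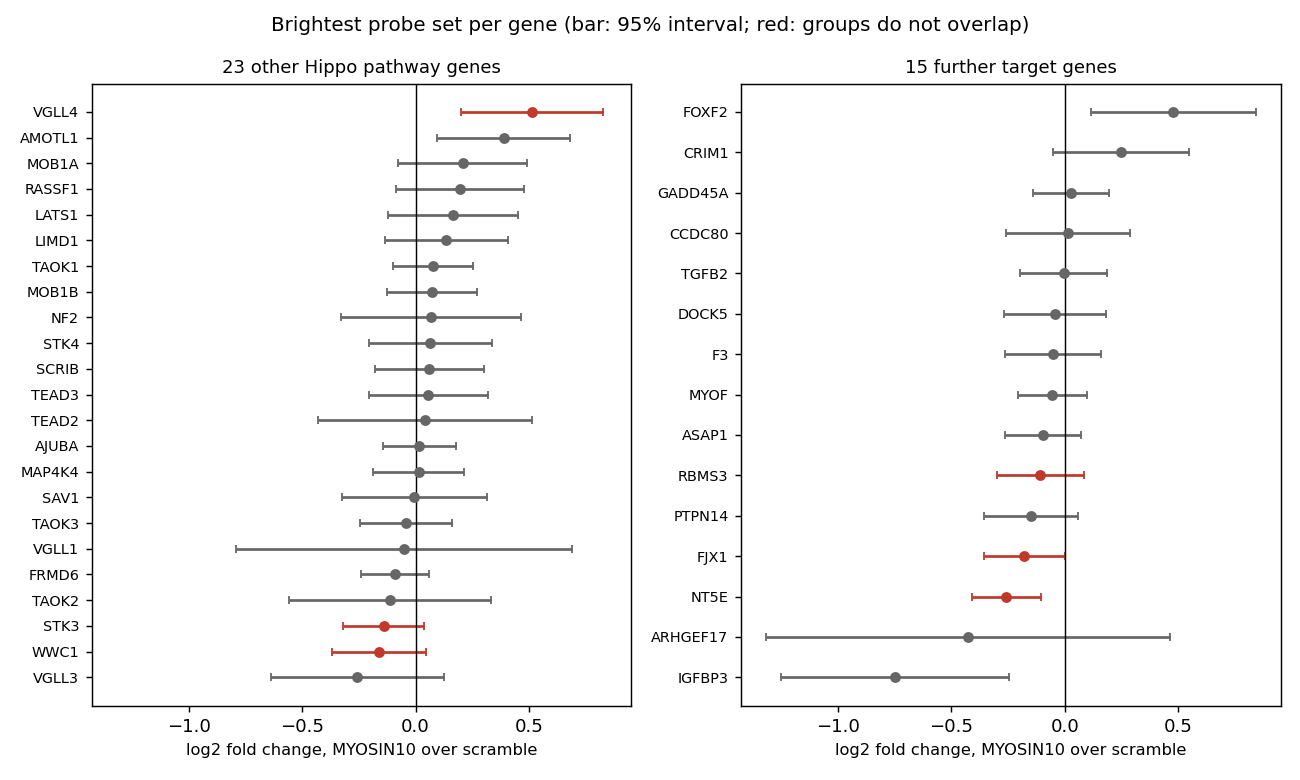
Log2 fold change of MYOSIN10 shRNA over scramble shRNA with its 95% interval, by the brightest probe set per gene, for 23 other Hippo pathway genes (left) and 15 further target genes (right). Red marks genes whose groups do not overlap, among them VGLL4 on the left and NT5E and FJX1 on the right. None was called.

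The genes whose 6 readings lay closest to those of CCN1 and CCN2, after each was centred on its own mean, were sought among 14181 others by the mean absolute difference over the 6 arrays. HACL1, PPIL3 and YARS1 came closest to CCN1, at 0.0173, 0.0209 and 0.0224 on the log2 scale, where the median gene differed by 0.186. FKBP7, LUZP1 and ZNF408 came closest to CCN2, at 0.0256, 0.0266 and 0.0282, where the median gene differed by 0.193. CCN2 ranked 907th in closeness to CCN1, and CCN1 ranked 530th in closeness to CCN2. The named genes were picked as the smallest of 14181 differences over 6 arrays, so small values follow from the selection. Whether any of these genes share their control was not tested.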

How the data were processed

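The deposited values are log2 signals of 54675 probe sets on 6 arrays, made with MAS5 per the submitters' processing notes, with version and scaling target not given in the sources used here. Each array's signal had a mean, with 2% trimmed at each end, of 500.1. Each value was raised from log2 to the signal itself, and log2(signal + 16) was taken, which understates folds of dim probe sets. Kept were probe sets at or above the 40th percentile of an array in 3 or more of the 6, without 62 control probe sets. Symbols came from the platform annotation, updated through RefSeq by Entrez number. limma 3.58.1 (R 4.3.3; variance trend, two-sided) compared the groups, adjusted by Benjamini-Hochberg over all 33334 probe sets, and a gene was called at an adjusted p under 0.05. The steps were tested on simulated data, drawn independently for each array with spread from the fitted variance trend. Differences between whole arrays, as seen for the arrays numbered 2, were not simulated.

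The 10 genes, both further lists and the named genes were chosen with earlier results of these data known. Named were MYO10, all 22 probe sets, and from each list the called genes or up to 4 with the smallest p. A condition on the genes closest to CCN1 and CCN2, that group means differ by over 0.5, was dropped because neither gene meets it. Alternatives were pseudocounts of 1 and 64, no filter or the 60th percentile, quantile normalization, median centring, no variance trend, weights for arrays, a replicate block, 1 probe set per gene, each array left out, and both arrays numbered 2 left out. Figures were drawn with matplotlib 3.10.9 in Python 3.11.15.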

Additional observations from a re-analysis of the deposited data

How the results depend on the processing

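Under 17 alternatives, 0 of the probe sets of YAP, TEAD and target genes tested were called. The number of probe sets called on the whole array was 354, against 175 without a filter, 0 without a variance trend (3661 at an unadjusted limma p under 0.05), 948 with array weights, 891 with the replicate block, 229 of 14182 with 1 probe set per gene, 1658 without both arrays numbered 2, and 59 to 1465 with 1 array left out, the extremes being without scramble arrays 1 and 2. The replicate numbers were not taken as pairs, since the sources do not say what same-numbered arrays share. Such arrays had deviation correlations of 0.0328, 0.118 and 0.0134, and 2 of 6 arrays matched their own number best. Both arrays numbered 2 lay together on the second principal component. Whether the numbers mark pairs was not tested. The pathway list had 1 call with array weights and 1 without both arrays numbered 2, and 0 to 1 with 1 array left out. The further targets had 1 call with quantile normalization, 2 with array weights, 1 with the replicate block, 4 without both arrays numbered 2, and 0 to 4 with 1 array left out. On the whole array, 342 of 33334 probe sets were called with quantile normalization. Among these settings the share of all genes called was counted only without scramble array 2, at 5.77%. MYO10 was called in 11 of 17 alternatives. It stood at -0.88 but was not called without a filter (limma adjusted p = 0.106) or variance trend (0.309). The value was -0.93 with array weights and -1.04 without both arrays numbered 2, both called. It ran from -1.12 to -0.75 with 1 array left out, where the call ended without scramble array 1 or 3 or MYOSIN10 shRNA array 1 or 3. Signs turned for probe sets near 0: AXL 202686_s_at at -0.0097 with quantile normalization and -0.0066 to 0.071 with 1 array left out, and LATS2 223380_s_at at 0.013 with array weights, 0.024 without both arrays numbered 2 and -0.083 to 0.100 with 1 left out. With 1 array left out, the range also crossed 0 for LATS2 227013_at (-0.027 to 0.10), LATS2 223379_s_at (-0.045 to 0.25), TEAD4 41037_at (-0.0053 to 0.059), TEAD1 1553322_s_at (-0.28 to 0.047) and CCN1 201289_at (-0.14 to 0.017). The causes of these shifts were not tested.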
